A study of Mus musculus with 6 samples.

Results

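The marrow stem cell niche genes are 10 genes grouped by function: Cxcl12, Kitl, Angpt1, Il7 and Vcam1, made by stromal cells and acting on blood cells; Cxcr4 and Kit, receptors on blood cells; Lepr, a receptor that marks marrow stroma; and Foxc1 and Ebf3, transcription factors of that stroma. They were found by symbol among the 23733 genes of the deposited table, and all 10 were tested. The rule that names them uses no measured value, but members and lists were chosen with earlier results of these data known. RNA came from pulverized femurs of 5-week-old mice, 1 library per mouse. The 3 mutant mice were Rosa26mIfitm5/+ Acan-Cre ERT2, so that tamoxifen switched on mutant Ifitm5, knocked into the Rosa26 locus, in cells that use the aggrecan promoter. Each dose was 10 mg/kg, and the sources place it at P10 or from P10 to P15. For its Cre crosses, this one included, the study names littermates with Cre alone, the knocked-in allele alone or neither as controls. The sources used here do not give the genotype of each of these 3 controls, whether they received tamoxifen, or the sex of any mouse. The Cre is restricted to aggrecan-expressing cells, mainly chondrocytes, whereas the niche genes are read here in whole bone, in which genes of blood cells were detected too. The paper's reporter tracing, also at 5 weeks, found cells marked through this Cre along the bone shaft in controls and a smaller fraction there in mutants.

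Blood stem cells and their early progeny live beside perivascular stromal cells of the marrow, often called CXCL12-abundant reticular or LepR+ cells. These cells secrete the chemokine CXCL12, which holds CXCR4-bearing cells in the marrow, and stem cell factor, the product of Kitl, which sustains cells bearing the receptor tyrosine kinase KIT. FOXC1 and EBF3 are required in mice for this stroma to keep its niche function and to keep the marrow cavity open.

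The sequences before the transcription starts of the receptor and ligand of both best known axes are shown because the results turn on these pairs. They are 200 bases that end at the base before a RefSeq start, read on the gene's own strand, 5′ to 3′, on GRCm38.p6. Capitals mark the TATA box letters TATAAA and the GC box letters GGGCGG on either strand, and adjoining capitals can be overlapping matches. The windows are chr1:128592300-128592499 for Cxcr4 (minus strand), chr6:117168335-117168534 for Cxcl12 (plus), chr5:75574787-75574986 for the first of the 2 Kit starts (plus) and chr10:100015621-100015820 for Kitl (plus).

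Cxcr4: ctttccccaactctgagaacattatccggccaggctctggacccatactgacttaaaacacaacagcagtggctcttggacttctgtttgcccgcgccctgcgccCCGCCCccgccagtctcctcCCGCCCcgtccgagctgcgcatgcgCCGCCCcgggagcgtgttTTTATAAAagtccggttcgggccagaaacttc
Cxcl12: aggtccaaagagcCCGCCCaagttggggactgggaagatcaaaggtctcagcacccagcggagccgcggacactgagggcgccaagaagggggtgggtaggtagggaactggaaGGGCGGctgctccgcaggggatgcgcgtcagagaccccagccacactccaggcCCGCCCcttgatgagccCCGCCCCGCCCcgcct
Kit: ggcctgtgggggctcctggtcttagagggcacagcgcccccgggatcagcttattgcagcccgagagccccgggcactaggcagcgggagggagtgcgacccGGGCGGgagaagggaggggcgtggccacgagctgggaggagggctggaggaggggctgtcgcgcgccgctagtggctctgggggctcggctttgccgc
Kitl: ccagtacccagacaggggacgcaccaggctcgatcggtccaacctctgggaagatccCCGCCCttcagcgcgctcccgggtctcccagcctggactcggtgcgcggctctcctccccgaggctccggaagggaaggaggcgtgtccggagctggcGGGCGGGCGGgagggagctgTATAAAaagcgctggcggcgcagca

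Cxcr4 carries 2 overlapping matches to the TATA box letters, of which the one on the opposite strand begins 32 bases before the start. Kitl carries 1 match, beginning 25 bases before the start, and Cxcl12 and Kit carry none in their windows. The GC box letters occur 5 times before Cxcl12, 3 times before Cxcr4, 3 times before Kitl and once before Kit. Of 32851 mouse promoters of 300 bases in the same table, 13.6% hold the TATA letters and 35.7% the GC box letters. Of the members, Cxcl12, Kitl, Cxcr4, Kit, Lepr, Foxc1 and Ebf3 were matched in that table, and Angpt1, Il7 and Vcam1 were not. The palindromic core motif of EBF factors and the letters GTAAACA, bound by many forkhead factors, and AGATAA, bound by GATA factors, were searched on both strands in the 300-base windows of these 7 genes and had 0 matches. Their shares of all promoters are 0.904%, 3.65% and 11.2%. These counts describe letters in short windows and say nothing of binding.

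Libraries held between 11473467 and 17058572 counts assigned to genes. Levels are given in CPM, counts brought to a common library total after scaling by TMM (trimmed mean of M-values). The median log2 fold change of the 18126 genes tested was 0.0019 on this scale and 0.17 with library size alone, a shift of 0.16, and every member read higher with library size alone. Genes of the osteoblast lineage summed to 61150 CPM or more in every library, most of it from Col1a1 and Col1a2. Ifitm5 itself, whose counts cannot separate the knocked-in from the native copy, was at 31.8, 31.3 and 47.6 CPM in control and 23.4, 36.7 and 36.02 CPM in mutants 1, 2 and 3, and the groups overlapped. Because each library is a whole femur, fewer cells of a type and less RNA per cell cannot be told apart. Mice carry replicate numbers 1 to 3 in each group, and a fit with this number as a block was also made. Deviations from the group mean correlated between same-numbered mice (0.154, 0.212 and 0.465), but mutant mouse 1 correlated more with control mouse 2 (0.202). Calls with the block therefore depend on a pairing that the sources used here do not give.

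The blood cell receptors Cxcr4 and Kit and the adhesion molecule Vcam1 were higher in every mutant mouse than in any control. The groups overlapped for the ligands Cxcl12 and Kitl and for the stromal receptor Lepr, with log2 fold changes between -0.11 and 0.15. They also overlapped for the transcription factors Foxc1 and Ebf3, at -0.50 and -0.39. Both were lower in all 3 same-numbered pairs after TMM scaling, but Foxc1 by a log2 difference of only -0.05 in pair 3. Without the block 0 of 10 members passed an adjusted p under 0.05 by edgeR's quasi-likelihood test (0.00% of all genes, 0 of 18126), 3 had an unadjusted p under 0.05 (8.56% of all genes), and DESeq2 also called 0 (0.651% of all genes). With the block, Cxcr4 was called higher and 0 members lower, where 2.70% of all genes were called higher and 0.623% lower. Groups did not overlap for 3 of the 10 members, all higher, against 6.54% of all genes higher and 6.67% lower.

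**Figure D1:**
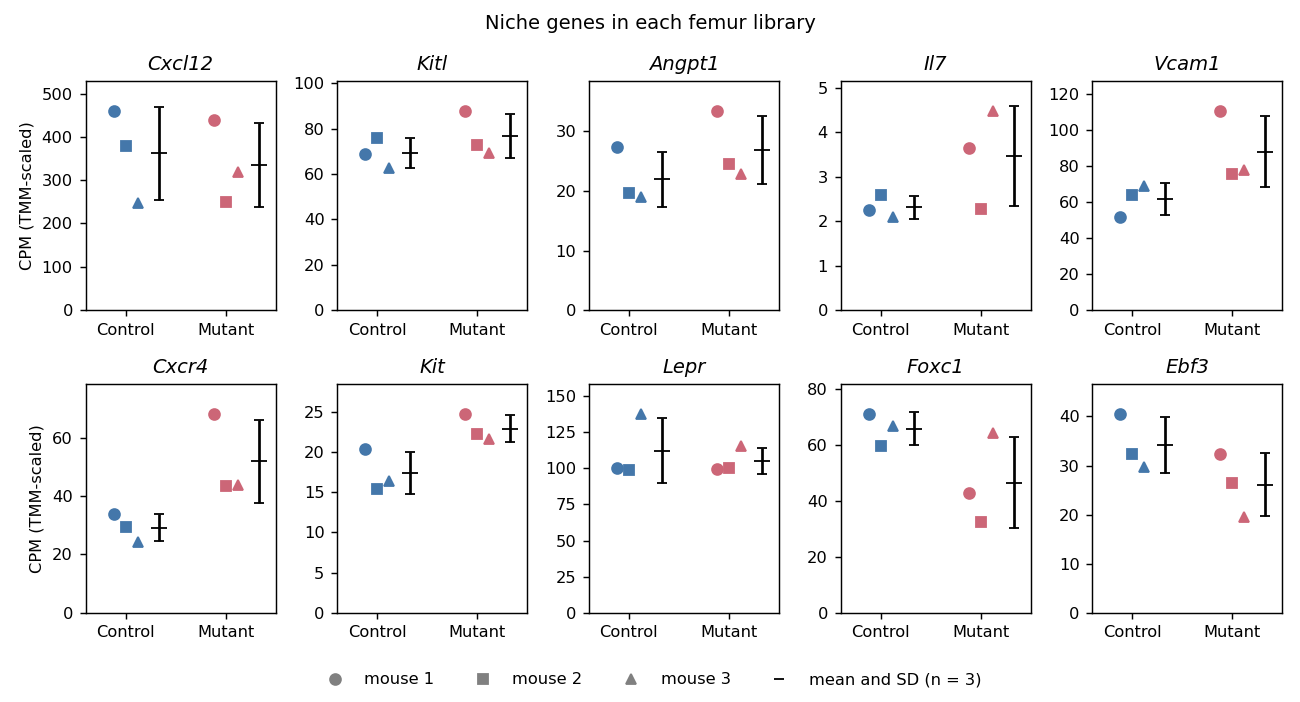
Level of each niche gene in each femur library. The vertical axis is CPM after TMM scaling and starts at 0, symbols give the mouse's replicate number, and the black mark is the mean with the SD of 3 mice. Cxcr4, Kit and Vcam1 of all mutant mice lie above all controls, whereas Cxcl12 and Lepr overlap.

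Cxcr4, the chemokine receptor for CXCL12 on stem cells, B cell precursors and neutrophils, lies on the minus strand of chromosome 1 of GRCm39 from 128515936 to 128520044 (promoter letters above). Its level was 33.9, 29.3 and 24.4 CPM in controls 1, 2 and 3 and 68.3, 43.6 and 43.7 CPM in mutants 1, 2 and 3. The groups did not overlap, and mutant mouse 1 stood highest. The means were 29.2 ± 4.72 and 51.9 ± 14.2 CPM (SD, n = 3), and the log2 fold change was 0.83 (standard error, SE, 0.21), a 1.78-fold higher level. By p-value Cxcr4 was number 123 of the 18126 genes, and its adjusted p was 0.520 by edgeR without the block and 0.0679 by DESeq2. With the block it was called, at 0.81 (SE 0.14, adjusted p = 0.00887 by edgeR), and it was the 1 member called with the block and library size alone, where 5.49% of all genes were called higher. The difference was positive in all 3 same-numbered pairs, at 1.01, 0.58 and 0.84 on the log2 scale. The block call was lost without pair 3 (0.80, adjusted p = 0.0913 by edgeR) and kept without pair 1 (0.71, adjusted p = 0.0382) and without pair 2 (0.93, adjusted p = 0.00526). Without mutant mouse 1 and without the block, the log2 fold change was 0.59 (adjusted p = 1.0 by edgeR), and over all alternatives the adjusted p of Cxcr4 ran from 0.00285 to 1.0.

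Kit, the receptor tyrosine kinase for stem cell factor on stem and progenitor cells and on mast cells, lies on the plus strand of chromosome 5 from 75735576 to 75817404. Its level was 20.4, 15.4 and 16.4 CPM in control and 24.8, 22.2 and 21.7 CPM in mutants 1, 2 and 3. The groups did not overlap, although the lowest mutant mouse was close to control mouse 1. Kit had a log2 fold change of 0.40 (SE 0.17, unadjusted p = 0.0414 and adjusted p = 0.572 by edgeR). With the block it was 0.40 (SE 0.15, adjusted p = 0.194), so the difference was not called by either fit. Over the 6 libraries Kit and Cxcr4 had a Pearson correlation of 0.91, the highest among the 45 pairs of members. This describes 6 points that share depth and tissue make-up.

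Vcam1, the adhesion molecule on stroma, endothelium and macrophages that binds the integrin of Itga4 on blood cells, lies on the minus strand of chromosome 3 from 115903598 to 115923355. Its level was 52.0, 64.2 and 69.2 CPM in control and 110.8, 75.8 and 78.1 CPM in mutants 1, 2 and 3. All mutant mice were higher than all controls, and mutant mouse 1 stood apart from the other two. The difference on the log2 scale was 0.51 (SE 0.18, adjusted p = 0.563 by edgeR), and 0.31 without mutant mouse 1. With the block the adjusted p was 0.183.

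Cxcl12, the chemokine after which the stromal cells are named and the member at the highest level per length, lies on the plus strand of chromosome 6 from 117144945 to 117158328. Its level was 459.8, 379.7 and 247 CPM in control and 438.7, 248.7 and 318 CPM in mutants 1, 2 and 3. The highest and the lowest library were both controls, and the groups overlapped throughout. The log2 fold change was -0.11 (SE 0.27, adjusted p = 0.929 by edgeR). Its sign was not stable: it was 0.06 with library size alone, 0.06 without mutant mouse 2 and 0.08 without control mouse 1.

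Kitl, which encodes stem cell factor and lies on the plus strand of chromosome 10 from 99851492 to 99936278, varied least among the members in control mice together with Foxc1, with SDs of 9.45% and 9.02% of the mean. It was at 69.0, 75.8 and 62.8 CPM in control and 87.8, 73.0 and 69.4 CPM in mutants 1, 2 and 3. The groups overlapped, and the log2 fold change was 0.15 (SE 0.14, adjusted p = 0.786 by edgeR), or 0.04 without mutant mouse 1. With library size alone the groups of Kitl did not overlap (59.8 to 70.6 CPM in controls, 73.4 to 96.9 CPM in mutants). Under that scaling 4 members did not overlap, all higher, against 15.4% of all genes higher and 2.05% lower.

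Angpt1, which encodes angiopoietin-1, the ligand of the receptor TEK, lies on the minus strand of chromosome 15 from 42288058 to 42540417. It was at 27.3, 19.7 and 18.9 CPM in control and 33.4, 24.5 and 22.8 CPM in mutants 1, 2 and 3. Each mutant mouse was above the control of its number, by 0.29, 0.32 and 0.27 on the log2 scale, yet the groups overlapped because mouse 1 was high in both. The log2 fold change was 0.29 (SE 0.21, adjusted p = 0.707 by edgeR), and with the block the adjusted p was 0.328. It was 0.11 without mutant mouse 1.

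Il7, the cytokine that B cell precursors need, was the member with the fewest counts, between 27 and 69 per library. An antisense lncRNA gene that shares exon bases with it had a mean of 0.180 CPM. Il7 lies on the minus strand of chromosome 3 from 7635054 to 7678825. Its level was 2.25, 2.59 and 2.10 CPM in control and 3.64, 2.27 and 4.48 CPM in mutants 1, 2 and 3. Mutant mouse 2 was within the control range and the other mutant mice were above it. For Il7 the log2 fold change was 0.59 (SE 0.35, adjusted p = 0.662 by edgeR). It was 0.35 without mutant mouse 3 and 0.81 without mutant mouse 2.

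Lepr, the leptin receptor, which marks most stromal cells that make Cxcl12 and Kitl, lies on the plus strand of chromosome 4 from 101574601 to 101676237. It was at 100.4, 98.6 and 138 CPM in control and 99.3, 99.9 and 115 CPM in mutants 1, 2 and 3. In both groups mouse 3 was highest and the other mice were nearly level. The log2 fold change was -0.10 (SE 0.16, adjusted p = 0.879 by edgeR), and it was 0.06 with library size alone and 0.08 without control mouse 3.

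Foxc1, a forkhead transcription factor, lies on the plus strand of chromosome 13 from 31990616 to 31996459. It was at 71.2, 59.4 and 66.7 CPM in control and 42.7, 32.4 and 64.2 CPM in mutants 1, 2 and 3. Mutant mice 1 and 2 were below all controls and mutant mouse 3 was within their range. Its log2 fold change was -0.50 (SE 0.23, adjusted p = 0.594 by edgeR). It was -0.81 without mutant mouse 3 and -0.30 without mutant mouse 2. With the block it was -0.55 (SE 0.16, adjusted p = 0.0945), and with library size alone -0.34. The log2 differences of same-numbered mice were -0.74, -0.88 and -0.05. With library size alone pair 3 turned the other way, at 63.5 CPM in control mouse 3 and 68.0 CPM in mutant mouse 3.

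Ebf3, an early B cell factor family member that marrow stroma rather than B cells uses, lies on the minus strand of chromosome 7 from 136795402 to 136916218. It was at 40.6, 32.4 and 29.7 CPM in control and 32.4, 26.5 and 19.5 CPM in mutants 1, 2 and 3. Each mutant mouse was below the control of its number, with log2 differences of -0.33, -0.29 and -0.60, but the groups overlapped. The log2 fold change was -0.39 (SE 0.21, adjusted p = 0.633 by edgeR). It ranged from -0.57, when mutant mouse 1 was left out, to -0.22, when mutant mouse 3 was, and was -0.22 with library size alone. With the block the adjusted p was 0.149.

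**Figure D2:**
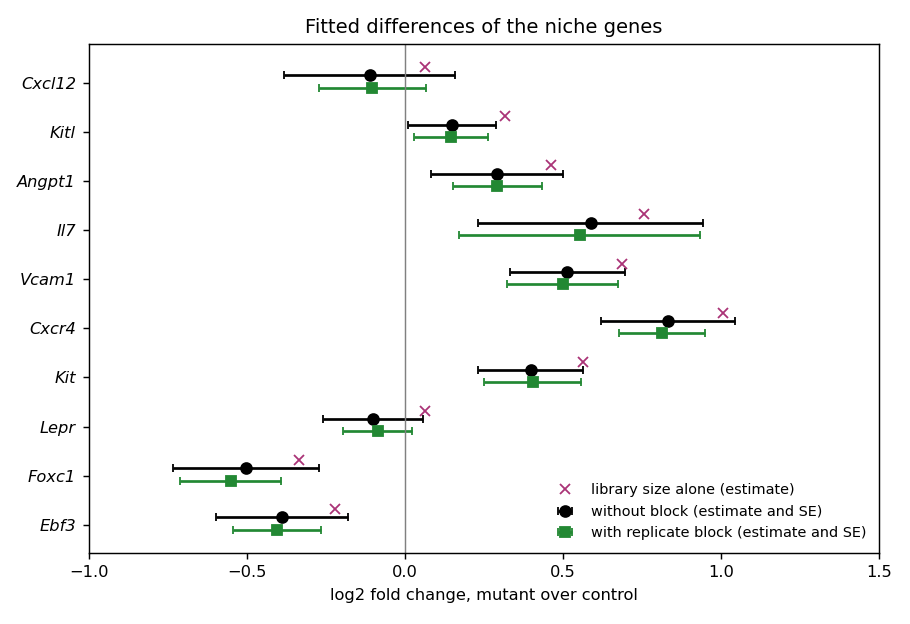
Fitted log2 fold change of each niche gene, mutant over control. Circles and squares with bars are the estimate and its standard error without and with the replicate block, and crosses are the estimate with library size alone. The crosses lie to the right of the circles for every member, and those of Cxcl12 and Lepr lie on the other side of 0.

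Over the 10 members, 6 log2 fold changes were positive and 4 negative, with a median of 0.22 beside 0.0019 over all genes tested. By role, both blood cell receptors and 4 of the 5 stromal ligands were positive, whereas Cxcl12, the stromal receptor and both stromal transcription factors were negative. With library size alone, Cxcl12 and Lepr were positive too. The number of members is too small to call any of this particular to the niche genes.

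Levels of different genes were compared per length, as CPM per kilobase of annotated exon. Cxcl12 led with 43.4 in control and 40.2 in mutant mice, and Cxcr4 followed with 16.0 and 28.5. In control mice Cxcl12 ranged from 29.6 to 55.1 and Cxcr4 from 13.4 to 18.6, so their ranges did not meet. In mutant mice they did, with a lowest Cxcl12 of 29.8 and a highest Cxcr4 of 37.5, though within every library Cxcl12 was the higher. Lepr, Foxc1, Kitl and Vcam1 came next, between 6.87 and 11.3 as means in control and between 7.94 and 9.81 in mutant mice, and within each group their ranges touched those of their neighbours. Their order differed between groups, since Foxc1 led these genes in control mice and Vcam1 led them in mutant mice. Angpt1, Ebf3 and Kit lay lower, between 1.84 and 3.74 as means, and Il7 was last with 0.408 and 0.611. Foxc1, Vcam1, Ebf3 and Kit changed rank between the groups, and the other 6 members held theirs.

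Ligand and receptor were then set against each other inside each library, a ratio that no scaling between libraries can change. Counts were not divided by length here (8346 exon bases for Cxcl12 and 1822 for Cxcr4). The ratios therefore compare mice and do not give the excess of ligand over receptor. Control mice 1, 2 and 3 had 13.6, 13.0 and 10.1 counts of Cxcl12 for each count of Cxcr4, and mutant mice 1, 2 and 3 had 6.42, 5.69 and 7.28. All 3 mutant mice were below all controls. The mean log2 ratio was 3.60 ± 0.23 in control and 2.69 ± 0.18 in mutant mice (SD, n = 3), a difference of -0.91. The exact permutation test gave a two-sided p of 0.1, the smallest that 3 mice against 3 allow, and 0.25 after adjustment over the 5 ratios tested. The difference stayed between -1.04 and -0.83 when any 1 library was left out.

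Kitl had 3.38, 4.93 and 3.82 counts for each count of Kit in control mice and 3.54, 3.28 and 3.20 in mutant mice 1, 2 and 3. The groups overlapped, and the log2 ratio differed by -0.26 (exact permutation test, two-sided p = 0.2, adjusted 0.333), or by -0.11 without control mouse 2. Angpt1 had 0.759, 0.575 and 0.604 counts for each count of Tek in control mice and 1.37, 0.887 and 0.822 in mutant mice. These groups did not overlap, with a log2 difference of 0.64 (exact permutation test, two-sided p = 0.1, adjusted 0.25), or 0.41 without mutant mouse 1. Tek, the angiopoietin receptor of endothelium, was at 35.9, 34.2 and 31.3 CPM in control and 24.4, 27.6 and 27.7 CPM in the mutants, a log2 fold change of -0.35 (SE 0.14, adjusted p = 0.568 by edgeR). Tek was thus on the lower side while Angpt1 was on the higher.

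For Il7 over Il7r the log2 ratio differed by -0.25 (exact permutation test, two-sided p = 0.7), and by 0.05 without control mouse 2. For Vcam1 over Itga4 it differed by -0.28 (exact permutation test, two-sided p = 0.5), from -0.53 without control mouse 1 to -0.04 without control mouse 3. In both pairs the receptor had a larger fold change than the ligand. Il7r, the receptor chain for IL-7, had a log2 fold change of 0.76 (SE 0.32) without the block and was called with it (0.78, SE 0.18, adjusted p = 0.0398 by edgeR). Itga4, which encodes an integrin chain of blood cells, had 0.85 (SE 0.30) without the block and was also called with it (0.79, SE 0.13, adjusted p = 0.00985). Without the block neither was called (adjusted p = 0.570 and 0.563).

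**Figure D3:**
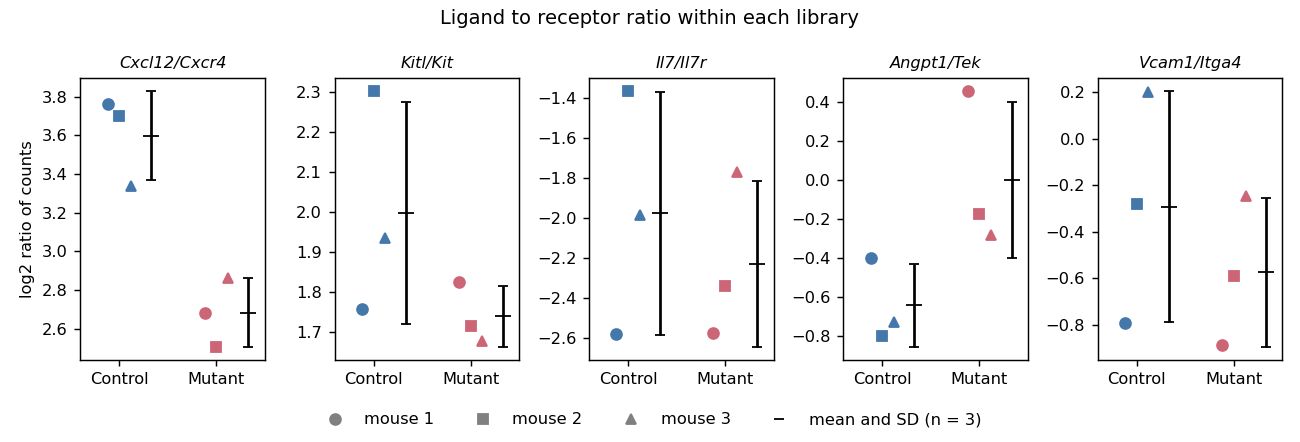
Log2 ratio of ligand counts to receptor counts within each library, with 1 panel per pair and its own axis, which does not start at 0. Symbols give the mouse's replicate number, and the black mark is the mean with the SD of 3 mice. The mutant mice lie below the controls for Cxcl12/Cxcr4 and above them for Angpt1/Tek, and the other 3 pairs overlap.

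Other genes of the niche were read from lists. Of 12 further receptors and partners of niche ligands, 7 were positive (median log2 fold change 0.28), 0 were called without the block (4 with an unadjusted p under 0.05) and 4 were called higher with it, all of them genes of blood cells. DESeq2 called 1 of them. Csf3r, the receptor for the granulocyte growth factor G-CSF, had a log2 fold change of 0.83 (SE 0.36) without the block and was called with it (0.79, SE 0.16, adjusted p = 0.0243 by edgeR).

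Of 18 other genes of LepR+ stroma, 12 were negative and 6 positive (median -0.12, and 0.04 with library size alone), and the median ran from -0.24 without control mouse 1 to -0.06 without control mouse 2. None was called without the block (0 by edgeR and 0 by DESeq2, 3 with an unadjusted p under 0.05). Their summed level was 2201 to 2667 CPM in control and 1951 to 2438 CPM in the mutants, so the groups overlapped as those of Cxcl12 and Lepr did. Hp, which encodes haptoglobin and is also made by neutrophil precursors, was the one called with the block (1.01, SE 0.22, adjusted p = 0.0330 by edgeR, and 0.98, SE 0.30, without it). Ebf1, a relative of Ebf3, had -0.08 (SE 0.18).

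Of 14 other niche ligands measured, 12 were tested and 10 were negative, with a median of -0.36 (-0.20 with library size alone and -0.19 without mutant mouse 1) and 0 calls by edgeR, with or without the block, or by DESeq2 (4 with an unadjusted p under 0.05). The Notch ligands Jag2 and Jag1 had the smallest p-values. Jag2 was at 11.9, 14.2 and 13.6 CPM in control and 8.47, 10.2 and 9.28 CPM in the mutants, and Jag1 at 46.7, 52.3 and 58.1 CPM against 35.2, 41.2 and 44.3 CPM. After TMM scaling both had groups that did not overlap, with log2 fold changes of -0.50 (SE 0.19) and -0.38 (SE 0.15). The adjusted p was 0.563 for each by edgeR. With library size alone the log2 fold changes were -0.34 and -0.22, and the groups of Jag1 overlapped. Groups did not overlap, with mutants lower, for 6.67% of all genes after TMM scaling and 2.05% with library size alone.

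Markers of stem and progenitor cells, which bear both receptors, had a median of -0.05 over 15 genes (-0.14 without mutant mouse 1 and 0.07 without mutant mouse 3), with 6 positive and 9 negative and 0 calls by edgeR without the block (1 with an unadjusted p under 0.05) or by DESeq2. Their summed level overlapped, at 278.7 to 366 CPM in control and 306.7 to 412 CPM in the mutants. Slamf1, a receptor of stem cells and of several mature blood cells, was called with the block (1.70, SE 0.34, adjusted p = 0.0203 by edgeR, and 1.64, SE 0.56, without it). Cd34, Meis1 and Mecom had -0.13, -0.13 and -0.05, whereas Hlf, Myb and Lmo2 had 0.58, 0.58 and 0.57. None of these genes was called with or without the block. The part of other cells of the femur in the levels of the listed markers was not tested, so the list does not measure stem cells alone.

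Lists of 3 blood lineages with members that carry Cxcr4 or Kit had positive medians, with calls in the block fit and 0 calls by edgeR without it. All 10 neutrophil precursor genes were positive (median 1.37), 9 were called higher with the block, 6 by DESeq2 and 0 by edgeR without it (9 with an unadjusted p under 0.05). Their summed level was 247.7 to 507 CPM in control and 884 to 1574 CPM in the mutants, so that list separated the groups. Ngp and Ltf, of the secondary granules, had log2 fold changes of 1.83 and 1.51. All 10 erythroid genes were positive (median 1.75, and 0.89 without mutant mouse 1), with 8 called with the block and 0 without it (3 with an unadjusted p under 0.05) or by DESeq2, but the sums overlapped (695 to 1356 CPM and 1142 to 5734 CPM). All 6 megakaryocyte genes were positive (median 1.84), with 4 called with the block, 2 by DESeq2 and 0 by edgeR without it (5 with an unadjusted p under 0.05), and sums of 37.2 to 68.0 CPM and 87.8 to 250.9 CPM. The part of these lineages in the differences of Cxcr4 and Kit was not tested.

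B cell precursors, which need CXCL12 and IL-7, had 9 of 9 measured genes on the positive side (median 0.52, from 0.22 without control mouse 3 to 0.86 without mutant mouse 2, and -0.04 with the block and without pair 3), with 0 calls by edgeR, with or without the block, or by DESeq2 (0 with an unadjusted p under 0.05). Their sums were 156, 91.6 and 61.8 CPM in control and 164.6, 80.6 and 140.6 CPM in the mutants. Within the mutant group mice 1 and 3, where Il7 was high, were above mouse 2. The controls did not share this order: the sum was highest in mouse 1, with Il7 at 2.25 CPM, and Il7 was highest in mouse 2, at 2.59 CPM. Mast cells are rich in Kit, and of their genes the proteases Cpa3, Mcpt4, Tpsb2 and Cma1 were at most 1.95 CPM in any library. Ms4a2, a chain of their IgE receptor, was at 0.333, 0.345 and 0.617 CPM in control and 2.14, 2.06 and 0.779 CPM in mutants 1, 2 and 3. Its groups did not overlap, with a log2 fold change of 1.88 (SE 0.60, adjusted p = 0.545 by edgeR), and it was not called with the block (adjusted p = 0.188). The part of mast cells in the level of Kit was not tested. Hdc, a histamine-forming enzyme that neutrophil precursors and basophils also use, was called with the block (1.23, SE 0.20, adjusted p = 0.00777 by edgeR, and 1.26, SE 0.40, without it). The 5 tested genes of this list were positive, at a median of 0.60 (0.23 without control mouse 1 to 0.98 without control mouse 2), with 0 calls by edgeR without the block (2 with an unadjusted p under 0.05) and 0 by DESeq2.

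Vcam1 is also made by macrophages and endothelium, whose part in its level was not tested. All 6 macrophage genes were negative (median -0.40, and -0.24 with library size alone), with 0 calls by edgeR without the block (1 with an unadjusted p under 0.05) or by DESeq2. Csf1r, the macrophage growth factor receptor, was called lower with the block (-0.49, SE 0.10, adjusted p = 0.0266 by edgeR, and -0.49, SE 0.24, without it). The macrophage sums were 332 to 560.2 CPM in control and 285 to 420.4 CPM in the mutants. Of 9 endothelial genes 7 were negative (median -0.13, and 0.03 with library size alone), with 0 calls by any of these fits (3 with an unadjusted p under 0.05 by edgeR). After TMM scaling, on which the separation depends, their sums did not overlap, at 535.6 to 575.7 CPM in control and 466.5 to 494 CPM in the mutants. Flt4, a receptor of sinusoidal and lymphatic endothelium, was at 35.8, 29.6 and 30.2 CPM against 19.95, 21.4 and 23.4 CPM (-0.56, SE 0.15, adjusted p = 0.540 by edgeR).

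**Figure D4:**
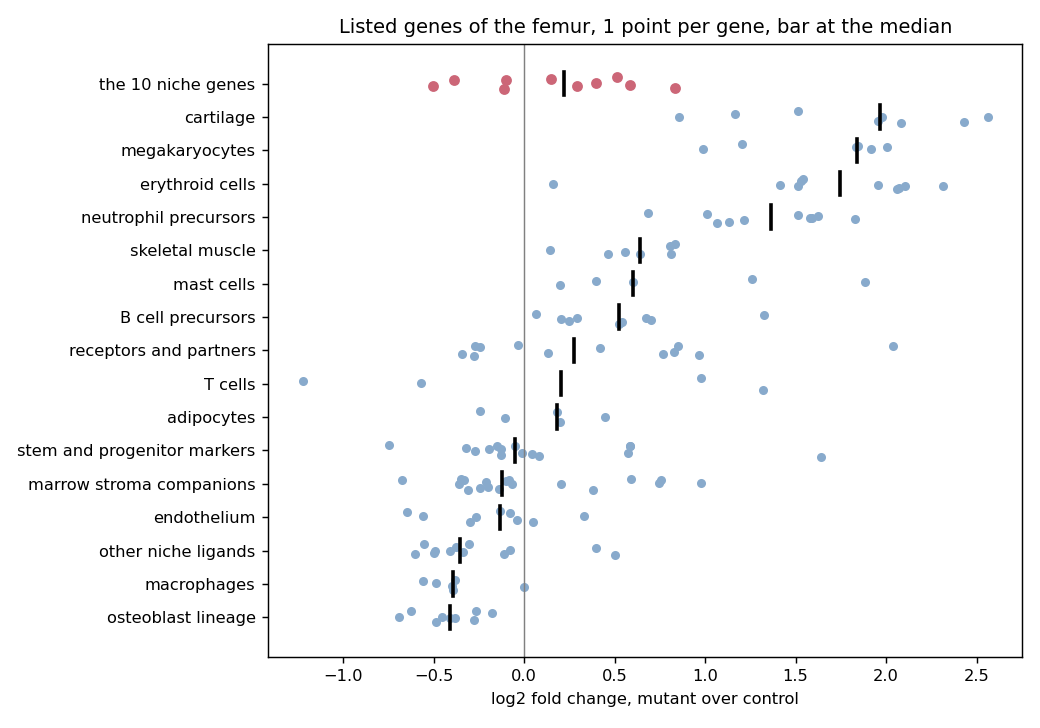
Log2 fold change, mutant over control without the block, of each tested gene of the niche genes (top row) and of 16 lists, 1 point per gene. Vertical spread within a row only separates points, and the black bar is the median of the row. The niche genes spread on both sides of 0 around a median of 0.22, while the neutrophil precursor, erythroid and megakaryocyte genes all lie to the right.

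For each member the genes whose levels followed it most closely over the 6 libraries were found among 11130 protein-coding genes with a mean of at least 5 CPM. Cxcr4 was followed by H2ac4 (Pearson r = 0.998), a histone gene, and Arpp21 (0.995). Kit was followed by Cep70 (0.998) and Slc38a9 (0.996), Cxcl12 by Whamm (0.999) and Lrif1 (0.989), and Lepr by Rest (0.993) and Ppt1 (0.990). Kitl was followed by the histone genes H4c3 (0.991) and H4c17 (0.988), Vcam1 by Ercc6l2 (0.989) and Cops2 (0.988), and Angpt1 by Stil (0.995) and Rpl21 (0.993). Il7 was followed by S100b (0.992) and Meltf (0.987), both highest, as Il7 was, in mutant mouse 3. Foxc1 was followed by Rbm12b1 (0.997) and Zfp28 (0.994), and Ebf3 by Tmem135 (0.975) and Eed (0.975). These are the best of many candidates over 6 points that share depth and tissue make-up. None of these genes belongs to the niche lists. Summed cartilage genes had the order of Il7 among the mutants, at 4177, 1915 and 5803 CPM in mutants 1, 2 and 3. The controls did not share it, at 1736, 1699 and 1356 CPM, since Il7 was highest in control mouse 2. The part of cartilage in the level of Il7 was not tested.

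Among the members themselves the correlations ran from -0.72 between Kitl and Lepr to 0.91 between Cxcr4 and Kit. Cxcl12 and Lepr, which the same stromal cells express, had -0.61, as Cxcl12 was lowest and Lepr highest in control mouse 3. Angpt1 correlated with Kit (0.87) and with Cxcr4 (0.86), and mouse 1 was highest for Angpt1, Cxcr4 and Kit in each group.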

How the data were processed

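Total RNA of 6 femurs (3 mutant, 3 control) was depleted of ribosomal RNA and sequenced in read pairs. The authors aligned reads to mm39 with STAR and deposited unscaled estimated counts for each gene, of which 70.7% were whole. The submitters' processing notes name Partek. Versions, annotation, counting settings and strand are not given in the sources used here. LncRNA genes antisense to Angpt1, Ebf3 and Il7 were at means of at most 1.45 CPM. Gene names and coordinates came from GENCODE vM39 on GRCm39 (23572 genes matched, 161 did not), promoters from RefSeq on GRCm38.p6. Genes summing to under 10 counts are not in the table, and 0 columns belonged to other samples.

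Counts were rounded, filtered with edgeR's filterByExpr (minimum 10, total 15), scaled by TMM and tested with the quasi-likelihood F-test of edgeR, p-values being adjusted over all genes tested by the method of Benjamini and Hochberg. Members and lists were chosen with earlier results of these data known. The ratios used a pseudocount of 0.5 counts. Nothing ties the mice's numbers to litters, and p-values measure the spread between mice. The fit without the block left the mice unpaired, and the block fit paired them by number. Each pair's deviations correlated over the limit of 0.1 (0.154, 0.212 and 0.465), although mutant mouse 1 correlated more with control mouse 2 (0.202). These correlations come from the same counts that the block fit tests, so they are no independent evidence that the numbers pair the mice. No 2 libraries agreed within counting noise (chi-square per gene at least 16.5).

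The rule named all members, their partners in 5 ratios, for each list up to 3 genes that passed with or without the block or else the 2 with the smallest p, and the 2 closest genes per member. Not every such gene is reported here. Genes named outside it (Csf3r, Ebf1, Cd34, Meis1, Mecom, Hlf, Myb, Lmo2, Ms4a2 and the mast cell proteases) were chosen after their values were seen. Vpreb1, Csf3, Tpsab1 and Fcer1a were not analysed here.

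Alternatives were DESeq2, limma-voom with and without quality weights, other scalings and filters, the block, and each library left out. Leaving out a pair from the block fit, and the overlap of groups with library size alone, were added after seeing the data. Fits were first tested on simulated data. R 4.3.3, edgeR 4.0.16, limma 3.58.1, DESeq2 1.42.0, Python 3.11.15, pandas 2.3.3, scipy 1.17.1 and matplotlib 3.10.9 were used.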

Additional observations from a re-analysis of the deposited data

How the results depend on the processing

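Without the block edgeR called 0 genes (1551 with an unadjusted p under 0.05), limma-voom 0, and DESeq2 118. With the replicate block edgeR called 602, and 1034 with the block and library size alone. The block called 1 of 10 members under both scalings, Cxcr4 at 0.81 and 0.98, where the second called 5.49% of all genes higher, and changed no other member's call. Without pair 1, 2 or 3 the block fit called 297, 700 and 157 genes, and 1, 1 and 0 members. Leaving out 1 library without the block gave 0 to 8 called genes, the 8 without mutant mouse 2, and 0 members. Of 190 alternative values of the members, 178 kept their direction and their side of the threshold, 4 passed it (Cxcr4) and 8 changed sign. These were Cxcl12 and Lepr with library size alone (0.064 and 0.062) and with the block and library size alone (0.060 and 0.076), Cxcl12 with the block and without pair 2 (0.15), and values with 1 library left out, which ranged from -0.35 to 0.081 for Cxcl12 (0.062 without mutant mouse 2) and from -0.19 to 0.080 for Lepr. The log2 ratio of Il7 to Il7r ranged from -0.55 to 0.055 with 1 library left out, and no other ratio changed sign. Library size alone moved the median of all genes by 0.16, and the cause of the other changes was not tested. With 3 mice a group, and 27 to 69 counts of Il7, the differences of Cxcl12, Kitl, Angpt1, Il7, Lepr and Ebf3 without the block were under 2 SE in size.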

Other observations

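Other tissues of the femur set the surroundings of the niche genes. Cartilage genes, which include the target cells of the Cre, were all 8 positive (median log2 fold change 1.97), with 6 called by DESeq2, 1 (Matn1) by edgeR with the block and 0 without it (7 with an unadjusted p under 0.05). Their sums were 1356 to 1736 CPM in control and 1915 to 5803 CPM in the mutants. All 9 genes of the osteoblast lineage, which also secretes some CXCL12, were negative (median -0.41, -0.26 with library size alone, and from -0.66 without mutant mouse 3 to -0.24 without control mouse 3), with sums of 122100 to 176800 CPM in control and 61150 to 111300 CPM in the mutants. Of these, Sp7, which encodes osterix, was called lower with the block, and 0 were called by edgeR without it (1 with an unadjusted p under 0.05) or by DESeq2. In control mice Cxcl12 was lowest, at 247 CPM, in mouse 3, where the osteoblast sum was highest. Most of each osteoblast sum was Col1a1 and Col1a2, at 119300 and 51870 CPM in control mouse 3, so the sums mainly give type I collagen.

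Skeletal muscle genes varied widely between libraries of both groups, with sums of 1037 to 8506 CPM in control and 1873 to 11860 CPM in the mutants, a median of 0.64 that ran from -0.04 without mutant mouse 2 to 1.42 without control mouse 2, and 6 of 7 genes called higher with the block (0 without it and 0 by DESeq2, 0 with an unadjusted p under 0.05). Adipocyte genes had a median of 0.18 over 5 tested genes, -0.70 without mutant mouse 1 and 1.18 without control mouse 2, with 0 calls by any fit named here (0 with an unadjusted p under 0.05 by edgeR). T cell genes had a median of 0.20 over 4 tested genes, which was -0.04 without mutant mouse 3, 0.87 without control mouse 1 and 0.98 with no filter on low counts, with 2 positive and 2 negative and 0 calls (0 with an unadjusted p under 0.05 by edgeR). Cd4, which marrow macrophages also carry, was at 14.5, 14.1 and 17.1 CPM in control and 5.86, 8.87 and 15.9 CPM in the mutants, and mutant mouse 3 was near the controls, as it was for Foxc1.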
